A study of Mus musculus with 5 samples.

Results

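The 10 genes that mark megakaryocytes and platelets and are compared across RNA-seq libraries of mouse bone marrow are the platelet chemokine genes Pf4 and Ppbp, the integrin genes Itga2b and Itgb3, the glycoprotein genes Gp1ba, Gp1bb, Gp9 and Gp5, the granule receptor gene Treml1 and the tubulin gene Tubb1. They were taken by symbol from a list of platelet genes and make up 10 of the 55291 gene symbols counted in each library. The samples are bone marrow cells labelled as monocytes, 3 from wild-type mice (replicates 1, 2 and 3) and 2 from Tet2-mutant mice (replicates 2 and 3). Tet2 encodes an enzyme that oxidises methylcytosine in DNA. The labels used here do not state strain, age, Tet2 allele, any treatment, how cells were isolated or whether each library came from a separate animal. The p-values therefore rest on differences among these libraries, which could be technical in part.

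Megakaryocytes are the large polyploid marrow cells that shed platelets. They arise from progenitors shared with the erythroid lineage and are driven by the transcription factors Gata1, Fli1, Runx1 and Nfe2. Platelets carry Pf4 (platelet factor 4) and the product of Ppbp (pro-platelet basic protein, the source of neutrophil-activating chemokines) in their alpha granules. They bind fibrinogen through the integrin of Itga2b and Itgb3 and bind von Willebrand factor through the complex of Gp1ba, Gp1bb, Gp9 and Gp5.

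Ppbp and Pf4 are direct neighbours on chromosome 5 of GRCm38 (90768518 to 90770063 and 90772435 to 90773383, both on the plus strand), with 2371 bases between the end of Ppbp and the start of Pf4. Their levels moved apart in these libraries, and the levels of Gp1ba (chromosome 11, 70639122 to 70642036, plus strand) and Gp5 (chromosome 16, 30307685 to 30310779, minus strand) separated the mutant libraries from each other, while Gp9 (chromosome 6, 87778072 to 87779768, plus strand) was low in both. The 250 bases before the RefSeq start of these genes are shown for that reason, 5′ to 3′ on the strand of the gene, from RefSeq on GRCm38.p6, a build that shares its coordinates with mm10. Their positions are chr5:90768268-90768517 for Ppbp, chr5:90772185-90772434 for Pf4, chr11:70638872-70639121 for Gp1ba, chr16:30310782-30311031 for Gp5 and chr6:87777820-87778069 for Gp9. Capitals mark matches on either strand to a GATA motif (AGATAA or TGATAA or AGATAG or TGATAG) or to an ETS motif (AGGAAG or CGGAAG), the motifs bound by families that include Gata1 and Fli1.
Ppbp: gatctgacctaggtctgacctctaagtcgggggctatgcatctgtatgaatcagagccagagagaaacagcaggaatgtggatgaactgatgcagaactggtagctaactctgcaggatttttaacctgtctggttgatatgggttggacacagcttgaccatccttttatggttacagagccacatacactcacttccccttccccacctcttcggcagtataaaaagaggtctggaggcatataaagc
Pf4: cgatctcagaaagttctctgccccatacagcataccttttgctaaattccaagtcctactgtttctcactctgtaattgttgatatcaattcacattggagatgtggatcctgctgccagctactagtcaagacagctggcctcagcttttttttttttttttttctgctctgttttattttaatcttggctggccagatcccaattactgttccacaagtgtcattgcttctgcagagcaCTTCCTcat
Gp1ba: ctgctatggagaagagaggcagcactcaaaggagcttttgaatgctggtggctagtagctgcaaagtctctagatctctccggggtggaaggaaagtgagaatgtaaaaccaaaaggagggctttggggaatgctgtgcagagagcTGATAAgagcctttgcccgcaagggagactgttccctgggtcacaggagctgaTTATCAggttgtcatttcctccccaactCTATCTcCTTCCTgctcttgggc
Gp5: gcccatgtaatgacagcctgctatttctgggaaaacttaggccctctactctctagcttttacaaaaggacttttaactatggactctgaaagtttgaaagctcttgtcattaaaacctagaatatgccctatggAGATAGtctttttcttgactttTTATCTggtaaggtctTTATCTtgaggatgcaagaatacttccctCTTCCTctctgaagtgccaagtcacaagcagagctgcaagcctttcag
Gp9: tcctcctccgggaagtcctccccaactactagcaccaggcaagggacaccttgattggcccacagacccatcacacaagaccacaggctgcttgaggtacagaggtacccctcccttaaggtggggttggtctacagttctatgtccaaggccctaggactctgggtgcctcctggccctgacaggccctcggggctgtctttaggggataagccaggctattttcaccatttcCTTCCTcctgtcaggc

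Gp1ba held 3 GATA matches, which begin 104, 51 and 23 bases before the start, and Gp5 held 3, at 115, 93 and 77 bases. Pf4 and Gp9 each held 1 ETS match and no GATA match, and the window of Ppbp held neither motif. No GATA match in these windows overlapped an ETS match. Of the 10 genes, 9 were in the RefSeq table, without Itgb3. A GATA match was present in 3 of these 9 (Gp1ba, Gp5 and Gp1bb) and in 26.5% of all 32851 windows of that length, and an ETS match in 7 of 9 and in 39.2%. All 250 bases of the Gp1bb window lie in annotated untranslated sequence. The RefSeq start of Itga2b lies 239 bases inside the gene as GENCODE places it. Most of the Itga2b window, with its 2 ETS matches, is therefore not upstream of the GENCODE start. For Tubb1 the 2 starts differ by 100 bases. Treml1 and Tubb1, whose levels also separated the mutant libraries, held no GATA match, and Treml1 held no ETS match either. Their windows are not shown. These matches are a description of the letters in the windows and not of binding.

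The libraries held 53789308 to 72414875 gene counts in the wild type and 17459808 and 60508381 in Tet2-mutant replicates 2 and 3. Fewer genes had at least 1 count in the mutant libraries, 18047 and 17944 against 24532 to 26207, and of the tested genes 953 and 1334 had no count, against 24 to 59 in the wild type. What part this has in the levels of the 10 genes, among them the extremes of Gp1ba, Gp5, Treml1 and Tubb1, was not tested. The 10 genes together received 12477, 15760 and 9906 counts in wild-type replicates 1, 2 and 3 and 2891 and 9343 in the mutant libraries. Levels are given in CPM, the counts relative to the library size after scaling by TMM, whose factors were 1.14 to 1.17 in the wild type and 0.723 and 0.895 in the mutant. Over all 17062 tested genes 70.5% of called genes were higher in the mutant with TMM, 43.6% with upper-quartile scaling and 29.1% with total counts alone, which moved the median log2 fold change by -0.27 and -0.50. Tet2 itself was at 9.77 to 11.9 CPM in wild-type marrow, at 5.31 CPM in mutant replicate 2 and at 15.6 CPM in replicate 3, on either side of the wild-type range. Its level does not check the labels, since the kind of Tet2 mutation is not stated. The 8 monocyte markers were present and summed to 885 to 1076 CPM in wild-type marrow, against 3503 and 2505 CPM in mutant marrow. Of these, 4 were called higher (Csf1r, Fcgr1, Ly86 and Cd68), whereas Ly6c2 was at 351 to 500 CPM in wild-type marrow, against 384 and 165 CPM in mutant marrow, and did not pass. Transcripts of other marrow cells were too, since the 10 erythroid markers summed to 5380 to 10520 CPM in wild-type marrow, against 6925 CPM (Tet2-mutant replicate 2) and 790.6 CPM (replicate 3). In such bulk samples fewer megakaryocytes or platelets and less RNA per cell cannot be told apart.

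Summed over the 10 genes, the level was 167, 188 and 162 CPM in the wild type and 229 and 172.5 CPM in the mutant. Within that sum the genes went different ways. In the fit on all 5 libraries Ppbp rose and Gp9 fell in the mutant, 7 genes did not pass, and Gp1bb was not tested because its counts were too low. The threshold for a call was an adjusted p of 0.05, and calls covered 10.6% of all tested genes as higher and 4.43% as lower, so 1 of 9 higher is near the background share and 1 of 9 lower is a single gene. The median log2 fold change over the 9 genes was 0.65, which is the value of Gp1ba, against -0.07 over all tested genes. In the fits of the single mutant libraries the median had the opposite sign, at -0.59 in replicate 2 and -1.05 in replicate 3, against -0.41 and -0.22 over all tested genes. Each library's values did not overlap between the genotypes for 5 of the 10 genes, with 1 higher in both mutant libraries (Ppbp) and 4 lower (Pf4, Itga2b, Itgb3 and Gp9). Over all tested genes 22.9% were higher and 33.3% lower in this way.

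**Figure D1:**
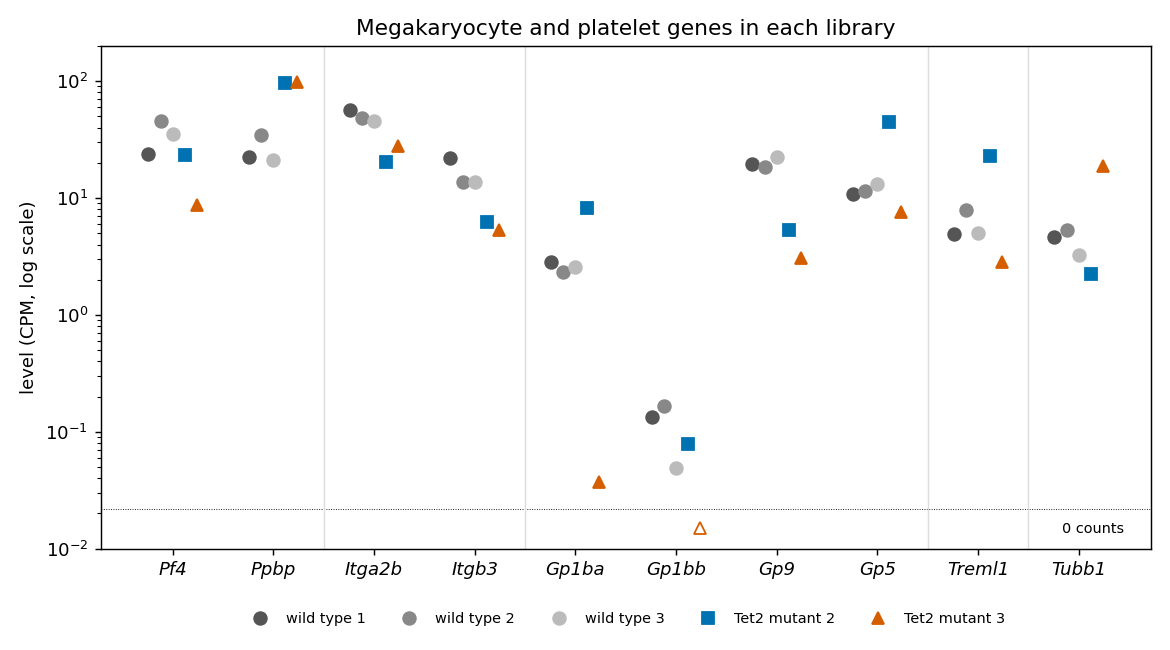
Level of each of the 10 genes (y axis, CPM on a log scale) in the 3 wild-type libraries (grey circles) and in Tet2-mutant replicates 2 (blue squares) and 3 (orange triangles). Ppbp sits near 95.9 and 98.2 CPM in the mutant libraries against 21.1 to 34.3 CPM in the wild type, and the open triangle marks 0 counts of Gp1bb.

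Per length, the order in the wild type began with Pf4, at 48.5 ± 15.2 CPM per kilobase of exon (SD, n = 3), followed by Ppbp at 23.9 ± 6.75 and Gp9 at 22.7 ± 2.40. The ranges of Ppbp and Gp9 overlapped, and that of Pf4 lay above both. Itga2b came next at 9.18 ± 1.04 CPM per kilobase, then Gp5, Treml1, Tubb1 and Itgb3 between 5.40 and 2.79, where each gene overlapped the next in range but Gp5 did not overlap Itga2b. Gp1ba stood apart at 0.946 ± 0.0880 CPM per kilobase and Gp1bb was lowest at 0.0559 ± 0.0292. In both mutant libraries Ppbp was first, at 88.5 and 90.7 CPM per kilobase, and Pf4 was at 32.3 and 12.01.

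Of the chemokine genes, Ppbp was counted at 22.3 CPM in wild-type replicate 1, 34.3 CPM in replicate 2 and 21.1 CPM in replicate 3, against 95.9 and 98.2 CPM in the mutant pair. Both mutant libraries were above every wild-type library and close to each other. The mean was 25.9 ± 7.31 CPM (SD, n = 3) in wild-type and 97.0 ± 1.64 CPM (SD, n = 2) in mutant marrow, a log2 fold change of 1.90 ± 0.31 (SE; adjusted p = 0.0133). The call was lost without wild-type replicate 1 (log2 fold change 1.96, adjusted p = 0.0545). Ppbp also passed in each mutant library set alone against the wild type, rising 1.89 in replicate 2 (log2; adjusted p = 0.00577) and 1.92 in replicate 3 (adjusted p = 0.00325).

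Pf4 was at 23.9, 45.75 and 35.2 CPM in wild-type marrow, against 23.3 CPM (Tet2-mutant replicate 2) and 8.66 CPM (replicate 3). Replicate 2 lay just under the lowest wild-type library, and within the wild-type range when DESeq2's size factors were used, while replicate 3 was well below. The log2 fold change was -1.14 ± 0.53 (adjusted p = 0.15), so the gene did not pass, although it passed with total counts alone (log2 fold change -1.72, adjusted p = 0.0427). Set alone against the wild type, Pf4 fell in Tet2-mutant replicate 3 (-2.01 ± 0.42, adjusted p = 0.0086) and did not pass in replicate 2 (-0.59 ± 0.39, adjusted p = 0.255).

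The ratio of the neighbours does not depend on how libraries are scaled. Counts of Ppbp over counts of Pf4 were 0.935, 0.750 and 0.598 in the wild type and 4.12 and 11.3 in Tet2-mutant replicates 2 and 3. Pf4 made up 51.7% (95% Wilson interval 50.0 to 53.3%), 57.1% (56.0 to 58.3%) and 62.6% (60.9 to 64.2%) of their joint counts in the wild type. It made up 19.5% (17.6 to 21.6%) in mutant replicate 2 and 8.10% (7.43 to 8.83%) in replicate 3. The order of the genes was thus reversed in both mutant libraries, by more than the counting error. These intervals cover only the counting of reads and not differences between libraries. They may be too narrow even for that, because amplified reads were counted. On the log2 scale the ratio was -0.42 ± 0.32 (SD, n = 3) and 2.77 ± 1.03 (SD, n = 2).

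**Figure D2:**
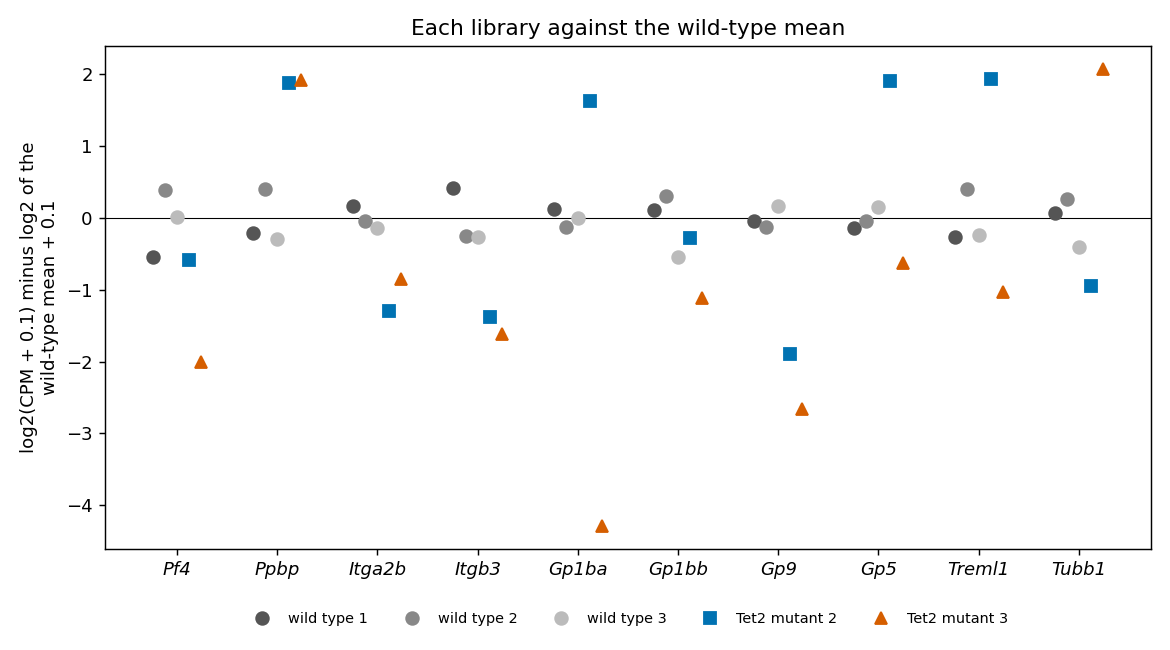
Difference of each library from the wild-type mean (y axis, log2(CPM + 0.1), which understates the fall of low genes) for the 10 genes, with symbols as in the plot of levels. Squares and triangles lie on the same side of 0 for Ppbp, Pf4, Itga2b, Itgb3, Gp9 and Gp1bb and on opposite sides for Gp1ba, Gp5, Treml1 and Tubb1.

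The integrin genes were lower in both mutant libraries without passing in the fit on all 5. Itga2b, which encodes the alpha IIb chain, lies on chromosome 11 (102453297 to 102470122, minus strand) and was at 56.4, 48.5 and 45.3 CPM in wild-type marrow, against 20.3 and 27.85 CPM in mutant marrow (log2 fold change -1.05 ± 0.32, adjusted p = 0.0625). Itgb3, the beta 3 chain, on the same chromosome (104608000 to 104670476, plus strand), was at 22.0, 13.7 and 13.6 CPM and at 6.26 and 5.30 CPM (-1.51 ± 0.49, adjusted p = 0.0739). Neither gene overlapped between the genotypes. Both passed as lower with upper-quartile scaling (adjusted p = 0.0461 and 0.0464), total counts alone (0.0286 and 0.0322) and DESeq2's Wald test (0.0219 and 0.00508). Those settings called 1837, 2877 and 2137 of all tested genes lower, against 755 in the main fit. Neither passed with the replicate number as a block (adjusted p = 0.49 and 0.591). Without wild-type replicate 1, 2 or 3 neither passed (0.242 to 0.277 for Itga2b, 0.253 to 0.322 for Itgb3). DESeq2's size factors and other filters did not make either pass. In each mutant library alone both were lower (log2 fold change -1.30 and -1.39 in replicate 2, -0.85 and -1.63 in replicate 3). The ratio of Itga2b to Itgb3 was 2.57, 3.53 and 3.32 in the wild type and 3.24 and 5.26 in the mutant, with replicate 2 inside the wild-type range.

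The subunits of the von Willebrand factor receptor did not move as a set. Gp9, the small subunit that holds the complex at the surface, was at 19.4, 18.3 and 22.4 CPM in wild-type marrow, against 5.31 CPM (Tet2-mutant replicate 2) and 3.08 CPM (replicate 3). Both mutant libraries were under every wild-type library (20.0 ± 2.12 CPM, SD, n = 3, against 4.20 ± 1.57 CPM, SD, n = 2), and the gene fell by 2.27 ± 0.49 on the log2 scale (adjusted p = 0.0302). That call was lost without wild-type replicate 1, 2 or 3 (adjusted p = 0.129, 0.133 and 0.154), with log2 fold changes of -2.04 to -2.19.

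Gp1ba, the chain that binds von Willebrand factor, was at 2.81, 2.34 and 2.56 CPM in wild-type marrow, at 8.16 CPM in Tet2-mutant replicate 2 and at 0.0369 CPM in the other mutant library, replicate 3. One mutant library was above and the other below every wild-type library, so the log2 fold change over both, 0.65 ± 1.46 (adjusted p = 0.757), describes neither, and its sign turned with total counts alone (-0.02). Set alone, replicate 2 was higher (log2 fold change 1.67 ± 0.29, adjusted p = 0.00786) and replicate 3 lower (adjusted p = 0.00104). Replicate 3 rests on 2 counts against 563 in the 3 wild-type libraries together, so it was 69.4-fold lower (exact binomial counting interval 19.1 to 574). The level in replicate 2, from 103 counts, was 221 times that in replicate 3 (59.7 to 1850).

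Gp5, the subunit that thrombin cleaves, showed the same order in the mutant libraries. It was at 10.8, 11.6 and 13.2 CPM in wild-type marrow, at 44.8 CPM in Tet2-mutant replicate 2 and at 7.66 CPM in the other mutant library, replicate 3 (log2 fold change over both 1.14 ± 0.68, adjusted p = 0.237). Alone, replicate 2 was higher by 1.92 ± 0.23 (adjusted p = 0.00185), and replicate 3 did not pass (-0.63, adjusted p = 0.0914). Treml1, a receptor kept in the alpha granules and shown on activated platelets (chromosome 17, 48359916 to 48367176, plus strand), was at 4.89, 7.89 and 4.99 CPM in wild-type marrow, against 22.8 and 2.86 CPM in mutant replicates 2 and 3. Its log2 fold change over both was 1.11 ± 0.83 (adjusted p = 0.341), with 1.94 ± 0.34 (adjusted p = 0.00747) in replicate 2 alone and -1.05 (adjusted p = 0.07) in replicate 3 alone. Gp1ba, Gp5 and Treml1 were thus all highest in Tet2-mutant replicate 2 and lowest in replicate 3.

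Gp1bb could not be followed. It was counted 10, 14 and 3 times in the wild type, 1 time in Tet2-mutant replicate 2 and 0 times in replicate 3, where a count of 0 allows up to 0.0554 CPM. In GENCODE M21, 91.1% of its 2087 exon bases (chromosome 16, 18620317 to 18622403, minus strand) also belong to exons of Septin5, a gene on the same strand, and 41.5% to Gm49601. The sources do not state how the authors' counter treated reads in such shared bases, so the count of Gp1bb is uncertain. Septin5 was at 21.55, 15.4 and 13.9 CPM in wild-type marrow, against 4.12 and 6.79 CPM in mutant marrow. Gm49601 was at 0.844, 0.346 and 0.375 CPM in wild-type marrow, at 30.3 CPM in replicate 2 and at 0.111 CPM in replicate 3, an order also seen for Gp1ba, Gp5 and Treml1, and this gene was named after its values were seen. For the other 9 genes the annotation gave no exon shared with another gene.

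Tubb1, the beta tubulin of the platelet's marginal band (chromosome 2, 174450695 to 174457882, plus strand), had the opposite order. It was at 4.60, 5.29 and 3.28 CPM in wild-type marrow, at 2.22 CPM in Tet2-mutant replicate 2 and at 18.8 CPM in the other mutant library, replicate 3. The log2 fold change over both was 1.27 ± 0.86 (adjusted p = 0.292), with 2.10 ± 0.32 (adjusted p = 0.0031) in replicate 3 alone and -0.99 (adjusted p = 0.105) in replicate 2 alone. Its level in replicate 3 was 8.49 times that in replicate 2 (counting interval 5.84 to 12.8, from 1020 and 28 counts).

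With the mutant libraries taken one at a time against the wild type, 4 of 9 tested genes were called higher in replicate 2 (Ppbp, Gp1ba, Gp5 and Treml1) and 3 lower (Itga2b, Itgb3 and Gp9), where 22.0% and 19.3% of all tested genes were called. In replicate 3, 2 of 9 were called higher (Ppbp and Tubb1) and 5 lower (Pf4, Itga2b, Itgb3, Gp1ba and Gp9), against 26.6% and 34.3% of all tested genes. These fits share the wild-type libraries and assume that the lone mutant library varies like the wild type, which makes calls frequent. Under TMM, upper-quartile scaling, DESeq2's size factors and total counts alone, the side of the wild-type range on which each mutant library lay was the same for each of the 10 genes, with the 1 exception of Pf4 in replicate 2.

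**Figure D3:**
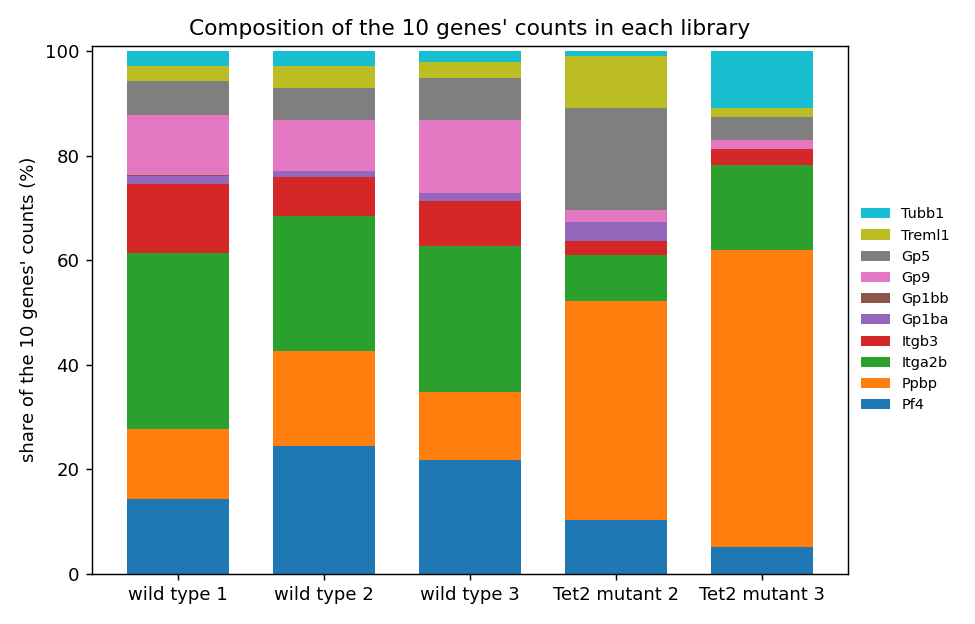
Share of each gene in the counts of the 10 genes together (y axis, percent, stacked to 100) in each library. Ppbp takes 13 to 18.3% in the wild type and 41.9% and 56.9% in Tet2-mutant replicates 2 and 3, and Itga2b takes 25.8 to 33.7% and 8.86% and 16.2%.

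The make-up of the counts of the 10 genes, which is free of library scaling, differed in the same way. Which cells these counts came from was not tested. Itga2b held the largest share in the wild type, at 33.7%, 25.8% and 28.0%, and Ppbp the largest in the mutant, at 41.9% (95% Wilson interval 40.1 to 43.7%) and 56.9% (55.9 to 57.9%). Gp9 held 11.6%, 9.74% and 13.9% in the wild type and 2.32% (1.83 to 2.93%) and 1.79% (1.54 to 2.08%) in the mutant. Gp5 held 6.15 to 8.17% in the wild type, 19.5% (18.1 to 21.0%) in Tet2-mutant replicate 2 and 4.44% (4.04 to 4.88%) in replicate 3. Tubb1 held 2.03 to 2.82%, then 0.969% (0.671 to 1.40%) and 10.9% (10.3 to 11.6%). The mutant libraries thus shared a high part of Ppbp and a low part of Gp9 and Itga2b, and differed from each other in Gp5 and Tubb1.

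Chemokine genes were set against the glycoprotein receptor genes (Itga2b, Itgb3, Gp1ba, Gp1bb, Gp9 and Gp5) as the difference of mean log2(CPM + 0.1). It was 1.63, 2.56 and 2.08 in the wild type and 2.98 and 3.93 in Tet2-mutant replicates 2 and 3, or 2.09 ± 0.47 (SD, n = 3) against 3.46 ± 0.67 (SD, n = 2). The mutant libraries were above the wild-type range, and the difference of the means was 1.37, given as a description with no test. Taken singly, Ppbp stood 1.88 ± 0.41 above the glycoproteins in the wild type and 4.84 ± 1.18 in the mutant, whereas Pf4 stood 2.30 ± 0.56 and 2.07 ± 0.16 above them. Relative to the glycoproteins, Ppbp was thus higher, and Pf4 kept within its wild-type range of 1.67 to 2.77, at 1.96 and 2.18. The measure also rises when the glycoproteins fall, and their sum was lower in both mutant libraries. The parts of chemokines and glycoproteins in the shift were not separated. Pf4 itself was at 8.66 CPM in mutant replicate 3, under the lowest wild-type library (23.9 CPM). It was within its range there only because the glycoprotein mean was lower too. A mean of logs gives full weight to the few counts of Gp1ba in replicate 3 (2) and of Gp1bb (1 and 0). Relative to the summed glycoproteins, Pf4 in mutant replicate 3 (8.66 against 43.9 CPM) was under every wild-type library. The lowest of those was replicate 1 (23.9 against 111.5 CPM), and mutant replicate 2 (23.3 against 84.85 CPM) was within their range. As sums, the chemokines were at 46.2, 80.1 and 56.3 CPM and at 119 and 107 CPM, and the 6 glycoproteins at 111.5, 94.6 and 97.15 CPM and at 84.85 and 43.9 CPM.

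**Figure D4:**
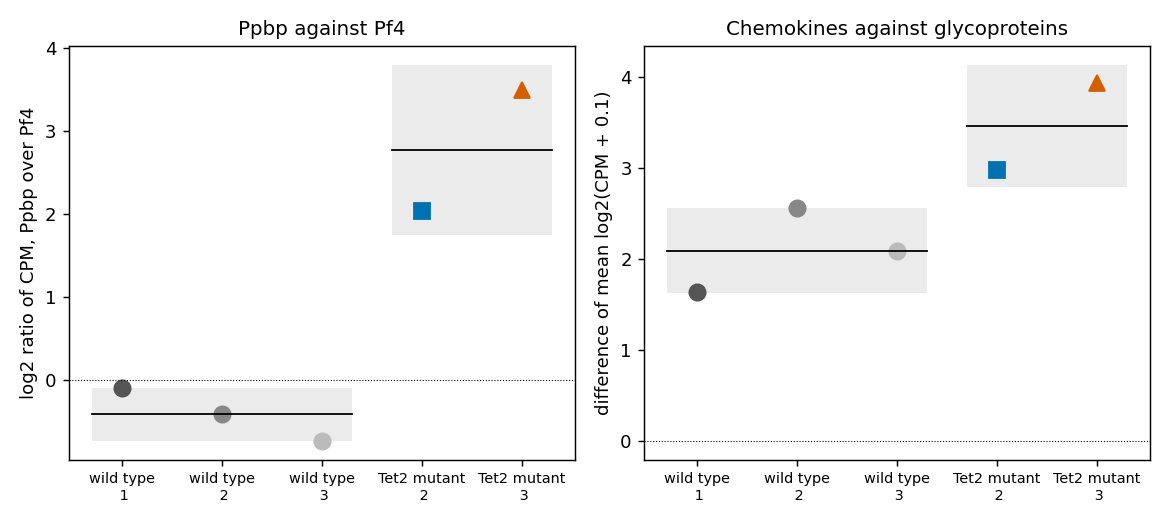
Left, log2 ratio of Ppbp to Pf4. Right, mean log2(CPM + 0.1) of Pf4 and Ppbp minus that of 6 glycoprotein receptor genes, in each library, with lines for the genotype means and shading for 1 SD. Both measures are above the wild-type range in both mutant libraries, at 2.04 and 3.50 on the left and at 2.98 and 3.93 on the right.

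Other genes of the platelet programme were counted by role, from lists of 90 genes of which 87 were tested. Of these, 10 were called higher and 4 lower in the mutant, against 10.6% and 4.43% of all tested genes, with a median log2 fold change of -0.36. With 1 library left out these counts ranged from 4 to 21 higher and from 0 to 34 lower. Among 12 transcription factors of megakaryocytes edgeR called 2 lower and 0 higher, and DESeq2 4 lower and 0 higher, with 5 lower and 0 higher at an unadjusted p under 0.05 by edgeR. Over all 17062 tested genes DESeq2 called 2972 higher and 2137 lower, more than edgeR. Genes at an unadjusted p under 0.05 were not counted over all genes, so those list counts, here and below, have no background. Zfpm1, the partner protein of Gata1, was at 63.3, 41.8 and 63.3 CPM in wild-type marrow, against 17.75 and 13.4 CPM in mutant marrow (log2 fold change -1.85 ± 0.36, adjusted p = 0.022). Mafg, the small Maf protein that pairs with Nfe2, was at 126, 134.5 and 135 CPM and at 69.8 and 46.8 CPM (-1.18 ± 0.27, adjusted p = 0.0359). Both calls were lost without wild-type replicate 1, 2 or 3, at adjusted p of 0.0992, 0.0528 and 0.0942 for Zfpm1 and 0.0893, 0.12 and 0.116 for Mafg. Gata1 itself, given because it is the lineage's main regulator, was at 138 to 236 CPM in the wild type, at 165 CPM in Tet2-mutant replicate 2 and at 19.7 CPM in the other mutant library, replicate 3. The erythroid markers had that same order (6925 and 790.6 CPM summed). The 6 B cell markers had the opposite order, at 913 and 7050 CPM summed, against 129 to 599 CPM in the wild type. The part of these cells in the levels of Gata1 and of the 10 genes was not tested.

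Among 15 activation receptors 2 rose and 2 fell. P2ry12, the platelet receptor for ADP that macrophages of some tissues also carry, rose to 44.0 ± 28.6 CPM (SD, n = 2) over 2.83 ± 0.487 CPM in the wild type (SD, n = 3; log2 fold change 3.95 ± 0.52, adjusted p = 0.00609). Fcer1g, the signalling chain of the collagen receptor and of Fc receptors on myeloid cells, rose from 281 ± 13.9 to 1286 ± 529 CPM (adjusted p = 0.00715). The genes that fell were the thrombin receptor F2rl3, at 3.67 to 4.43 CPM in the wild type and 0.475 and 0.166 CPM in the mutant (adjusted p = 0.0394), and the collagen-binding integrin gene Itga2, at 0.392 to 0.429 CPM in the wild type with 0 counts in both mutant libraries.

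Macrophage markers rose along with P2ry12 and Fcer1g, with 9 of 9 called and sums of 278 to 374 CPM in the wild type and 4493 and 3329 CPM in the mutant, and the share of those cells in the rise of these receptors was not tested. The same holds for T cell markers, of which 5 of 6 rose (96.7 to 187 CPM summed in the wild type, 1154 and 849 CPM in the mutant), beside Lat and Cxcr3. Lat, an adaptor used by platelets and T cells, rose to 140.5 ± 24.1 CPM (SD, n = 2) over 34.4 ± 5.07 CPM in the wild type (SD, n = 3; log2 fold change 2.03 ± 0.27, adjusted p = 0.00606), and Cxcr3, a chemokine receptor of T and NK cells that binds Pf4, from 13.65 ± 2.53 to 90.7 ± 40.7 CPM (2.73 ± 0.38, adjusted p = 0.007). Cxcr2, the receptor for the products of Ppbp on neutrophils, was at 161 to 222 CPM in wild-type marrow, against 99.0 and 13.5 CPM in mutant marrow. It did not pass (log2 fold change -1.71 ± 0.73, adjusted p = 0.13), but was called lower in each mutant library alone (adjusted p = 0.0446 in replicate 2 and 0.000785 in replicate 3). The 8 neutrophil markers summed to 41380 to 50660 CPM in wild-type marrow, against 46650 and 21360 CPM in mutant marrow. Ngp alone made up 25520 and 13820 CPM of that sum in the mutant. In both mutant libraries 3 of the 8 were below the wild type (Ltf, Mpo and Elane) and 0 above. The part of neutrophils in the level of Cxcr2 was not tested. The endothelial markers, which share Vwf with megakaryocytes, summed to 45.9 to 57.4 CPM in wild-type marrow, against 51.3 and 66.0 CPM in mutant marrow, and their defining gene Cdh5 stood at 0.326 to 0.482 CPM and at 0.0792 and 1.13 CPM. That sum hides different moves, since Pecam1 alone made up 41.75 and 51.65 CPM of it in the mutant. Of the 8 markers, 1 was above the wild type in both mutant libraries (Pecam1) and 3 were below (Tek, Tie1 and Egfl7).

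In the list of alpha granule cargo, edgeR called 2 of 12 genes higher and 0 lower, with 4 lower at an unadjusted p under 0.05. DESeq2 called 3 lower (Mmrn1, Selp and Vwf), where it called 2137 of all 17062 tested genes lower. The list's median log2 fold change was -0.92. Clu, which encodes the chaperone clusterin, was at 11.4, 10.2 and 6.38 CPM in wild-type marrow, against 37.5 and 43.5 CPM in mutant marrow (log2 fold change 2.12 ± 0.39, adjusted p = 0.0189), a call lost without wild-type replicate 1, 2 or 3 (adjusted p = 0.0651, 0.0547 and 0.0627). Srgn, the granule proteoglycan made by many blood cells, rose by 1.22 ± 0.26 (adjusted p = 0.0305), a call lost with upper-quartile scaling (adjusted p = 0.0564) and total counts alone (adjusted p = 0.0866) and without wild-type replicate 1 or 3 (adjusted p = 0.0868 and 0.0563). Granule formation genes gave 0 calls of 10 by edgeR, with 4 at an unadjusted p under 0.05 and 4 by DESeq2, lower in each case. The nearest to the threshold was Rab27b, a GTPase of granule release, at 8.85, 9.49 and 7.87 CPM and at 2.38 and 1.64 CPM (log2 fold change -2.13 ± 0.62, adjusted p = 0.0569). Of 13 genes that signal to the integrin, 3 rose (Lat, Rap1b and Lcp2), with Rap1b at 1844 ± 126 CPM (SD, n = 2) over 935 ± 26.6 CPM in the wild type (SD, n = 3; adjusted p = 0.038). The call of Rap1b was lost with upper-quartile scaling (adjusted p = 0.0747) and total counts alone (adjusted p = 0.152) and without wild-type replicate 1, 2 or 3 (adjusted p = 0.0706, 0.0858 and 0.078).

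Of 10 cytoskeleton genes 2 rose. Myl9, the myosin light chain of proplatelet formation, was at 3.91, 4.58 and 1.99 CPM in wild-type marrow, against 28.8 and 36.5 CPM in mutant marrow (log2 fold change 3.22 ± 0.50, adjusted p = 0.0104), a call lost without wild-type replicate 1 (adjusted p = 0.0566). Tpm4, a tropomyosin, rose by 0.86 ± 0.23 (adjusted p = 0.0481), a call lost with upper-quartile scaling (adjusted p = 0.11) and total counts alone (adjusted p = 0.268) and without wild-type replicate 1, 2 or 3 (adjusted p = 0.0852, 0.0982 and 0.108). None of 4 eicosanoid enzymes passed (0 at an unadjusted p under 0.05 by edgeR, and 0 by DESeq2), and the thromboxane synthase Tbxas1 was nearest (0.75 ± 0.35, adjusted p = 0.155). In the chemokine cluster around Ppbp and Pf4, 3 of 5 genes were tested and none passed (0 at an unadjusted p under 0.05 by edgeR, and 0 by DESeq2). The most abundant of them, Cxcl2, was at 120 to 186 CPM in wild-type marrow, against 90.5 and 7.94 CPM in mutant marrow (log2 fold change -1.70 ± 0.86, adjusted p = 0.177), and was called lower in replicate 3 alone (adjusted p = 0.000795). Cxcl3, the gene of smallest p, was at 0.214 to 0.441 CPM in wild-type marrow, against 0.475 and 2.38 CPM in mutant marrow (2.06 ± 0.90, adjusted p = 0.134).

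**Figure D5:**
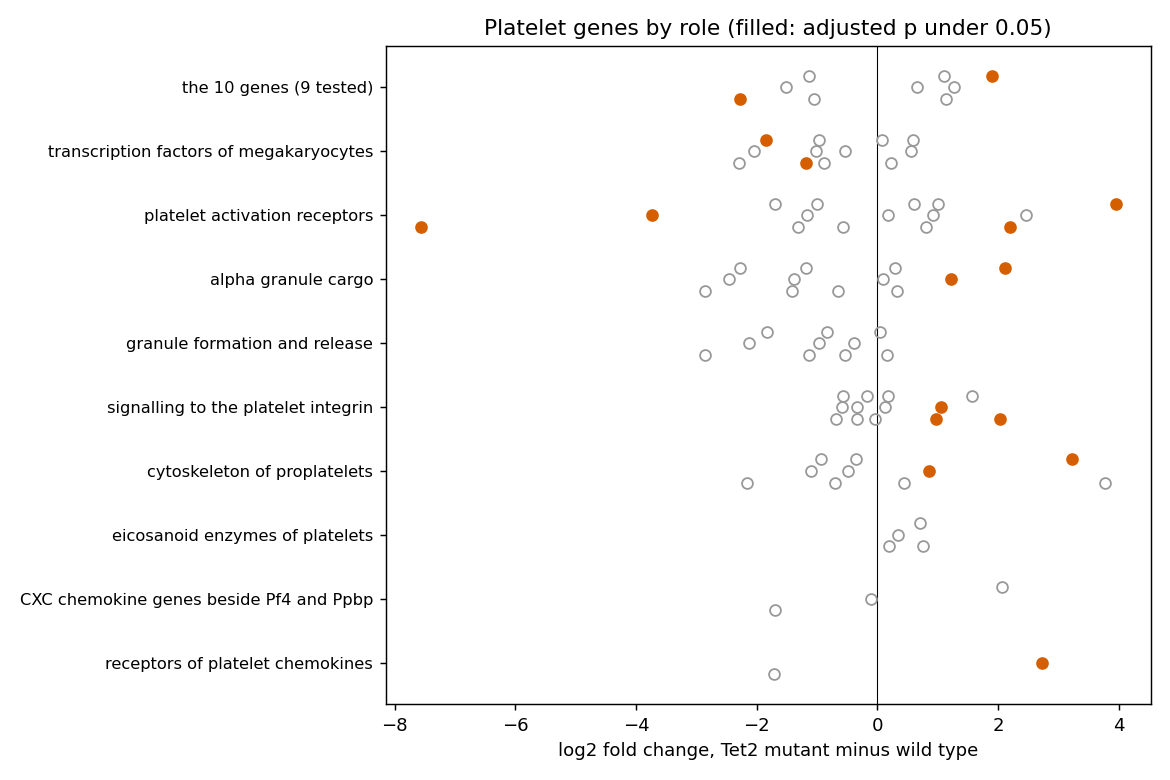
Fitted log2 fold change, mutant relative to wild type (x axis), for the 9 tested genes of the 10 and for other platelet genes by role (y axis); filled orange points passed at an adjusted p under 0.05. The point farthest left is Itga2, which had 0 counts in both mutant libraries, so its fitted value depends on the prior count and is not a bound.

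The genes with the pattern most like the 10 were sought by the Euclidean distance, over the 5 libraries, between a gene's centred log2(CPM + 0.1) and the median of the 10 centred profiles. Among 11518 genes at a mean of 1 CPM or more, the nearest were Tmem263, Ly6a2, Arl2bp, Suz12 and Mppe1, at distances of 0.174 to 0.220. Tmem263, the nearest, was at 24.8, 31.5 and 24.8 CPM in wild-type marrow, against 22.4 and 12.05 CPM in mutant marrow. The 10 genes themselves lay 0.471 (Gp1bb) to 3.61 (Gp1ba) from their own median. With 5 libraries this likeness is a description of few points.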

How the data were processed

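RNA-seq of bone marrow cells labelled as monocytes was deposited as raw read counts per gene, 1 table for each of 3 wild-type and 2 Tet2-mutant libraries. The submitters' processing notes name Trimmomatic, STAR and mm10, and the sources do not state which counter, annotation and strand setting the authors used. Totals were 17459808 to 72414875 counts. Genes were filtered with filterByExpr (17062 kept), scaled by TMM and tested by edgeR 4.0.16 (R 4.3.3) with the quasi-likelihood F-test and Benjamini-Hochberg adjustment over all tested genes. CPM used the TMM-scaled library sizes, and differences of log2 levels a pseudocount of 0.1. Each mutant library was also fitted alone against the wild type. The common biological coefficient of variation was 0.507. Shares have 95% Wilson intervals and single-library ratios exact binomial ones. Exon lengths and positions came from GENCODE M21 and upstream sequence from RefSeq, both on GRCm38. The fit was tested on simulated counts. Other scalings, filters, DESeq2 1.42.0, a replicate block and leaving out each library were tried, and those for single mutant libraries were added after seeing the data.

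The genes and lists were chosen with earlier results of these data known. Besides the 10 genes, the text names from each list up to 2 called genes of smallest p, or the 1 gene of smallest p where none passed, the first gene of some marker lists, and the 5 genes nearest in pattern. The result of 1 list that this rule would name is not reported here. F2rl3, Itga2, Lcp2, Gata1, Cxcr2, Cxcl2, Mmrn1, Selp, Vwf, Septin5, Gm49601 and all markers other than Ly6c2 and Cdh5 were named after their values were seen. With all libraries, edgeR called 0 of 6 mast cell, 1 of 5 stem cell, 0 of 8 neutrophil and 3 of 6 B cell markers, each called gene higher, 4 of 8 monocyte markers higher, 0 of 8 endothelial markers and 1 of 10 erythroid markers, lower. Where edgeR called 0, an unadjusted p under 0.05 was met by 0 mast cell, 2 neutrophil (lower) and 3 endothelial markers (1 higher, 2 lower), and DESeq2 called 0 mast cell, 2 neutrophil (Elane and Mpo, lower) and 3 endothelial markers (Pecam1 higher, Egfl7 and Tie1 lower).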

Additional observations from a re-analysis of the deposited data

How the results depend on the processing

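Depth limits the lowest genes most: 3 counts correspond to 0.0358 to 0.0490 CPM in the wild-type libraries, and to 0.238 and 0.0554 CPM in the mutant ones. Of the 10 genes, 1 was called higher and 1 lower with all libraries. The higher count ranged from 0 to 4 with 1 library left out, and the lower count from 0 to 5. The lower count was 3 with upper-quartile scaling, 4 with total counts alone, 3 with DESeq2's Wald test and 0 with the replicate block. Of the 87 other platelet genes 10 were higher and 4 lower. The higher count was 6 with upper-quartile scaling, 6 with total counts alone, 5 with the replicate block and 4 to 21 with 1 library left out. The lower count was 12 with upper-quartile scaling, 21 with total counts alone, 13 without a filter, 18 with DESeq2's Wald test and 0 to 34 with 1 library left out. In Tet2-mutant replicate 2 alone, 3 of the 10 genes were lower, and 5 with total counts alone. The difference of chemokines over glycoproteins, 1.37, ranged from 0.89 to 1.84 with 1 library left out. Gp1ba, at 0.65 with all libraries, ranged from -6.05 without Tet2-mutant replicate 2 to 1.67 without replicate 3. The fits without 1 mutant library assume that the lone one varies like the wild type. The cause of these changes was not tested.

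Libraries with the same replicate number did not deviate together (correlation -0.04 for replicates 2 and for replicates 3, the groups sharing 2 numbers). The deviations of 2 mutant libraries from their mean mirror each other, so these values are not independent. They do not tell what the replicate number marks, which the labels do not state. With the replicate number as a block, calls over all genes went from 1801 higher and 755 lower to 752 and 232, Ppbp kept its call (adjusted p = 0.0301) and Gp9 did not (adjusted p = 0.23). Over all genes, DESeq2's Wald test called 2972 higher and 2137 lower, and the fit without a filter 3059 and 1498. With wild-type replicate 1, 2 or 3 left out, 633 to 942 were higher and 6 to 19 lower. Without Tet2-mutant replicate 2 or 3 they were 4543 and 3759 higher and 5852 and 3297 lower.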
